A study of Mus musculus and Homo sapiens with 12 samples.

Results

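H3K18bu, the butyrylation of lysine 18 of histone H3, was mapped by CUT&Tag in CCD841 cells and in mouse large intestine, and the genes that carried it were compared between the species. A gene was taken as marked where peaks of both replicates of a species fell in 1 merged region within 1 kb of either end of the gene. Of 15993 protein-coding genes with an identical symbol in both annotations, 707 were marked in both species (4.42%), 5701 in CCD841 cells only (35.6%) and 609 in mouse only (3.81%), and 8976 (56.1%) were marked in neither. In all, 6408 matched genes were marked in CCD841 cells (40.1%) and 1316 in mouse (8.23%). An identical symbol does not establish that 2 genes are orthologs, and 14.2% of the marked CCD841 genes and 12.1% of the marked mouse genes had no match and were left out.

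Butyrate is a short-chain fatty acid that gut bacteria make from fiber. Colonocytes take it up, oxidize it as fuel and, when it is abundant, accumulate it as butyryl-CoA, the donor for butyrylation of histone lysines, while free butyrate inhibits histone deacetylases. Lysine butyrylation is a longer relative of acetylation, can be placed by acyltransferases such as EP300, and is known from the starts of active genes. CUT&Tag tethers a transposase to the marked chromatin through an antibody, so that DNA around the mark is tagged and sequenced.

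CCD841 is a line from normal human colon that is labelled epithelial, and both of its H3K18bu libraries came from cells given 1 mM sodium butyrate (NaBu) for 12 to 16 h. The mice were males of the CETP-ApoB-100 transgenic strain, which the study also calls ApoE-deficient, and their age was not given. Their large intestine was dissected and frozen whole after a high fat, high sucrose diet that was later supplemented with 5% arabinoxylan, a plant fiber, with 2 mice per condition. Libraries of H4K12bu from both sources, and of H3K18ac and H4K12ac from mice whose label gives the same diet without naming fiber, are used below as other marks. The study's methods describe a low fat control group and no high fat group without fiber, so the diet behind the acetyl libraries is uncertain, and nothing states whether they share mice with the butyryl libraries. No untreated CCD841 library and no mouse H3K18bu library without fiber was analysed here, so the values describe where the mark lay under butyrate and not a response to it. Nothing states that the 2 CCD841 replicates came from separate cultures. In tissue, fewer cells of a type with the mark and less mark per cell cannot be told apart.

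The libraries differed greatly in peak number and pileup, and the 2 gene sets do not rest on the same evidence. The CCD841 lists held 299720 and 299691 peaks, close to the limit of 300000 that the authors set, and the mouse lists held 60813 and 50675. The pileup, the number of extended read ends over the summit, had a median of 15 and 12 in CCD841 cells and of 1 in each mouse library. Every CCD841 peak had a q value below 0.05, against 1.99% and 1.53% of the mouse peaks. Of the 707 shared genes, 83.2% had a pileup of 1 in at least 1 mouse replicate, and so did 87.2% of the genes marked in mouse only. Presence in both mouse replicates is therefore the evidence for these genes, and the height of a single mouse peak is not.

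Genes marked in CCD841 cells were marked in mouse more often than other genes were. Mouse H3K18bu was found at 11.03% of the genes marked in CCD841 cells and at 6.35% of those unmarked there. Seen from mouse, 53.7% of the marked genes were marked in CCD841 cells, against 38.8% of the unmarked genes. The product of the 2 shares gives 527 genes, and the 707 observed were 1.34 times that number. No p is attached to this ratio, since genes are not replicates and a list of 2 libraries per species has no spread between samples to set it against. Between single libraries of different species the same ratio was 1.14 to 1.15 in all 4 pairs, below the ratios between replicates, which were 1.44 in CCD841 cells and 1.62 in mouse. The largest value this ratio can take falls as the marked shares rise, so 1.62 against 1.44 does not rank agreement between replicates. Replicate 2 of CCD841 was marked at 82.8% of the genes of replicate 1, where 57.6% of all matched genes were. In the other direction the share was 74.9%, against 52.1% of all. Mouse replicate 2 was marked at 45.9% of the genes of mouse replicate 1, against 28.4% of all. The reverse share in mouse was 52.1%, against 32.3% of all. With q below 0.01 asked of every library, 6 mouse genes remained, 2 of them marked in CCD841 cells, and the ratio fell under 1, to 0.832.

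The shared genes placed highest by a rank that joined both species were LEKR1, ALCAM, CGRRF1, CD82, INPP5A, PCGF3, CDCA2, KCTD9, AMN1 and COQ10B. Genes were ranked in each species by the lower −log10 p of the replicates, and these 10 had the best worse rank. The values below are the deposited fold at the summit of the strongest peak, which is the pileup divided by the background around the peak, with 1 added to each. ALCAM, the adhesion molecule CD166, had a fold of 7.98 and 8.57 in the CCD841 replicates and of 3.78 and 2.83 in the mouse replicates. INPP5A, which removes a phosphate from the calcium-releasing messenger inositol trisphosphate, had 12.6 and 11.2 in CCD841 cells and 2.80 and 4.60 in mouse. For CGRRF1, a RING-finger ubiquitin ligase, the fold was 10.2 and 11.7 in CCD841 cells and 2.91 in each mouse library. A fold is relative to the background of its own library and, with 1 added to a low pileup, is set by the pileup in mouse, so folds are read within a species and not compared between them. The mouse pileups of the 10 genes were 1 to 4 read ends. None of the 10 had a q below 0.05 in both mouse replicates, whereas 8 other shared genes did.

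CD82, a tetraspanin known as a suppressor of metastasis, had a fold of 8.42 and 6.93 in CCD841 cells and of 3.63 and 2.80 in mouse. PCGF3, a RING-finger subunit of a variant Polycomb complex, had 8.29 and 8.47 in CCD841 cells and 2.87 and 2.80 in mouse. COQ10B, a coenzyme Q binding protein of mitochondria, had 12.2 and 13.5 in CCD841 cells but only a pileup of 1, and a fold of 1.97, in each mouse library. CDCA2, which brings a protein phosphatase to chromosomes, and KCTD9 share 1 region between their neighbouring ends in each species and are not independent. The mark could not be assigned to either of the pair. All 10 genes also carried H4K12bu in both CCD841 replicates and in both mouse replicates, where 27.0% and 19.7% of all matched genes did. In mouse, H4K12ac was found at 6 of the 10 (32.8% of all) and H3K18ac at LEKR1 and AMN1 (29.1% of all).

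**Figure D1:**
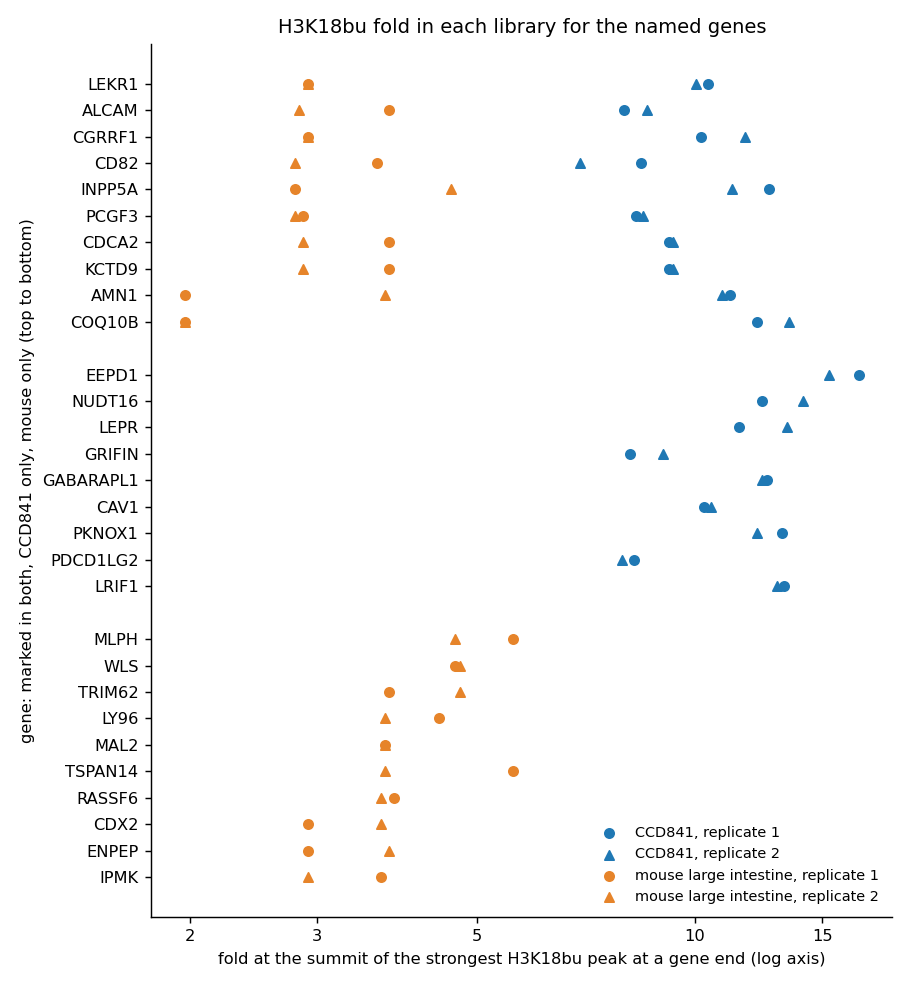
Fold at the summit of the strongest H3K18bu peak at a gene end (log axis) for 10 genes per class by rank. For CCD841 only, 9 of them are shown. In the 2 classes of 1 species, only genes without a peak of the other species at their ends were ranked. Circles are replicate 1, triangles replicate 2, blue CCD841, orange mouse large intestine. CCD841 points lie at 6.93 or higher and mouse points at 5.59 or lower, on scales that are not comparable between species, and genes of the lower blocks have points from 1 species because no peak of the other was listed at their ends.

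The starts of 2 of these genes are printed because peaks of all 4 libraries overlapped them. Each stretch runs from 250 bases before to 50 bases from the start onward, with human sequence read at the GENCODE start and mouse sequence from RefSeq. Capitals mark matches, on either strand, to the 8 motifs searched, which were the TATA box (TATAAA), the CCAAT box (CCAAT), the GC box (GGGCGG), the AP-1 site (TGAGTCA), the cAMP response element (TGACGTCA), the E-box (CACGTG), the ETS site (CCGGAAG) and the NRF1 motif.
ALCAM (human, hg38, chr3:105366659-105366958, + strand): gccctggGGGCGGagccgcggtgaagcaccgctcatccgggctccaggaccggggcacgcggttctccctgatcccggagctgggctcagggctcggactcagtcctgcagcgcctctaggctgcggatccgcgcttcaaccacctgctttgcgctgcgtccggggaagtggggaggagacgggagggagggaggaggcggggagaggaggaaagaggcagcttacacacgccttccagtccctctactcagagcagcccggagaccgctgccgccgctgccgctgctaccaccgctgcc
Alcam (mouse, GRCm38.p6, chr16:52453032-52453331, - strand): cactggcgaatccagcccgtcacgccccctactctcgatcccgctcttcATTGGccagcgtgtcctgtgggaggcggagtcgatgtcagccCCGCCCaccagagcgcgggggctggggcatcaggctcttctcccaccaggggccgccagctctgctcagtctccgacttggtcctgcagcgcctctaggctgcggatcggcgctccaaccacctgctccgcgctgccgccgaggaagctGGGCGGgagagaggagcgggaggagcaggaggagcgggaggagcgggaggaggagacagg
CGRRF1 (human, hg38, chr14:54509562-54509861, + strand): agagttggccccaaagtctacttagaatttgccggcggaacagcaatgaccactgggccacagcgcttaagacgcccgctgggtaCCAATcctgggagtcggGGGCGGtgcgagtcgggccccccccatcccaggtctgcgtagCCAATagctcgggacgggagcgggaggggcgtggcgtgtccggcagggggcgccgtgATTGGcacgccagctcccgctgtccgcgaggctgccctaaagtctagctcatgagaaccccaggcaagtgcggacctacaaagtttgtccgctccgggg
Cgrrf1 (mouse, GRCm38.p6, chr14:46831884-46832183, + strand): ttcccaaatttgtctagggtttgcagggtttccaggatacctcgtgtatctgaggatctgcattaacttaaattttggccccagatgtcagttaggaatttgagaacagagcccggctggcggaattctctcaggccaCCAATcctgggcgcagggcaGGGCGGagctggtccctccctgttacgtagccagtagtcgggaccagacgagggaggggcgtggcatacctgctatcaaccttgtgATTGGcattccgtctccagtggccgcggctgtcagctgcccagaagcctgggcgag
The 2 pairs shared GC boxes in both species, and CGRRF1 held CCAAT in both. The human stretches held 26 and 25 CG dinucleotides in the order ALCAM, CGRRF1, and the mouse stretches 25 and 13.

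Promoters of the shared genes were rich in CG, and more so than those of any other class. In human, 83.0% of the 707 shared genes had at least 10 CG in the 300 bases, against 76.5% of the genes marked in CCD841 only, 70.8% of those in mouse only and 70.5% of all matched genes. In mouse, where the reference held a promoter for 584 of the shared genes, these shares were 85.4%, 76.4%, 80.8% and 71.9%. The GC box was found in 65.9% of the shared human promoters and in 56.2% of all, and in 70.0% and 58.1% in mouse. The cAMP response element was rarer, at 4.67% of the shared human promoters against 2.45% of all, and 3.60% against 2.79% in mouse. TATAAA was less frequent at shared genes, 6.22% against 9.41% in human and 4.97% against 9.18% in mouse. CCAAT was found in 38.9% against 35.2% and in 40.6% against 37.7%, and the NRF1 motif in 1.13% against 1.58% and in 1.54% against 1.63%. The AP-1 site, E-box and ETS site went opposite ways in the 2 species. In human they were at 4.53%, 7.21% and 10.9% of shared promoters, against 3.77%, 8.77% and 11.7% of all. In mouse they were at 3.60%, 9.76% and 16.6%, against 4.05%, 9.36% and 14.4%. A match of letters is not a binding site. Among the 7750 genes with at least 10 CG in both species, the shared genes were 1.30 times the product of the shares, and among the 2297 with fewer in both they were 1.51 times it, a split chosen after the values were seen.

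The rule asked for a region near either end of a gene, and for most shared genes it was the start that carried the mark in both species. The region lay at the start for 87.7% of the shared genes in CCD841 cells and for 92.1% of the 584 whose strand was known in mouse. Of these 584 genes, 480 (82.2%) were marked at the start in both species. Genes marked in CCD841 only had the region at the start in 83.7%, and genes marked in mouse only in 89.3% of 469. Summits near the ends of marked genes follow from the rule, so their profile is given as a description only. At shared genes, the densest 100 bp lay just before the start in all 4 libraries. There, CCD841 replicates 1 and 2 had 34.7 and 35.1 summits per 100 shared genes, beside 28.8 and 29.2 per 100 genes marked in CCD841 only. The mouse replicates had 18.3 and 16.6 at shared genes.

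**Figure D2:**
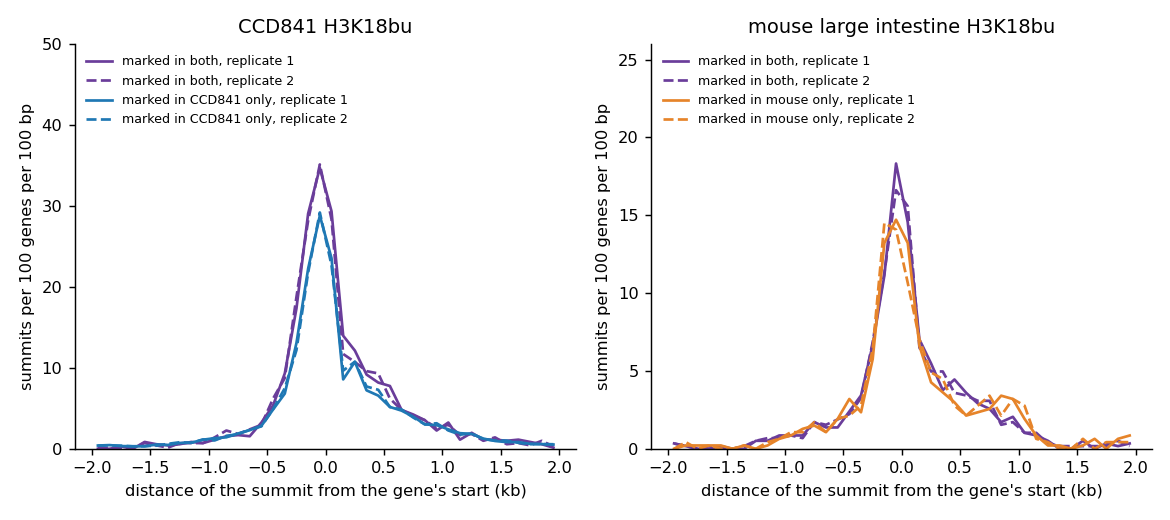
Summits of H3K18bu peaks per 100 genes in steps of 100 bp (vertical) against distance from the gene's start in kb (horizontal), for CCD841 cells on the left and mouse on the right; solid lines are replicate 1 and dashed lines replicate 2. All lines peak in steps centred within 150 bp of the start, with up to 35.1 summits per 100 shared genes in CCD841 cells and up to 18.3 in mouse.

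The share of CCD841 genes that were also marked in mouse was highest in the group of lowest p-values in CCD841 cells. CCD841-marked genes were divided in 5 equal groups by the lower −log10 p of the replicates, and mouse H3K18bu was found at 9.45%, 8.58%, 8.67%, 12.6% and 15.8% of them from the weakest group to the strongest. The first 3 groups lay near the 8.23% of all matched genes. In the other direction no steady order was seen, with 47.5%, 52.5%, 59.3%, 49.4% and 59.8% of the mouse groups marked in CCD841 cells, and most mouse genes were tied at a pileup of 1. Genes with the same p were split between neighbouring mouse groups, and all of group 4 had a −log10 p of 3.98. Differences between these groups are therefore not an order by strength. By the lower mouse pileup, in bins chosen after the values were seen, the share was 52.5% of 1119 genes at 1, 62.7% of 161 at 2, 45.5% of 33 at 3 to 4, and 3 of 3 at 5 or more. By the lower CCD841 pileup, the share marked in mouse was 9.85% of 4162 genes at 1 to 14, 13.2% of 1872 at 15 to 24, 13.5% of 326 at 25 to 39 and 12.5% of 48 at 40 or more. The 95% Wilson interval of the last bin, 5.86% to 24.7%, covers the shares of the other bins. The lower fold of the 2 CCD841 replicates had a median of 5.19 at shared genes and 4.71 at genes marked in CCD841 only, with quartiles of 4.16 to 6.60 and 4.07 to 5.76 that overlapped widely. In mouse this median was 1.94 in both classes.

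**Figure D3:**
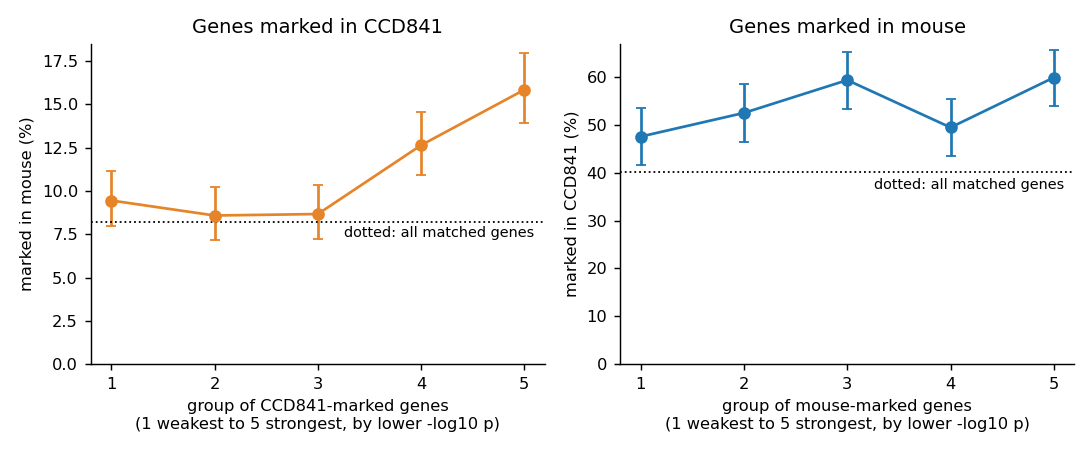
Share of genes marked in the other species (vertical, %) by group of the lower −log10 p of the replicates, from 1, the weakest, to 5, the strongest (horizontal), for genes marked in CCD841 cells (left) and in mouse (right); bars are 95% Wilson intervals of counting error only, and the dotted line is the share of all matched genes. The left panel stays between 8.58% and 9.45% in groups 1 to 3 and reaches 15.8% in group 5. The right panel moves between 47.5% and 59.8% with no steady order, in groups that split genes of the same p.

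Genes marked by H3K18bu in both species also carried the other acyl marks more often than genes of any other class. H4K12bu, butyrylation of lysine 12 of histone H4, was found in both CCD841 replicates at 48.1% of the shared genes, 43.8% of those marked in CCD841 only, 18.1% of those in mouse only and 27.0% of all matched genes. In mouse it was found at 56.7% of the shared genes, 48.1% of the mouse-only genes, 21.6% of the CCD841-only genes and 19.7% of all. Mouse H3K18ac, acetylation of the same lysine, was found at 60.5% and 56.8% of the shared and the mouse-only genes, beside 33.0% of the CCD841-only genes and 29.1% of all. For mouse H4K12ac these shares were 61.4%, 46.1%, 35.4% and 32.8%. All 4 other marks were present at 14.6% of the shared genes and at 2.78% of all.

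The mouse gene set of H3K18bu was not the only one that overlapped CCD841 H3K18bu. CCD841 cells were marked at 53.7% of the mouse H3K18bu genes, 52.0% of the mouse H4K12bu genes, 49.6% of the mouse H3K18ac genes and 46.7% of the mouse H4K12ac genes, beside 40.1% of all. Where mouse genes had both H3K18bu and H3K18ac, 55.3% of 774 were marked in CCD841 cells. The share was 51.5% of 542 with H3K18bu alone, 48.4% of 3883 with H3K18ac alone and 35.4% of 10794 with neither. The acetyl libraries carried several times more peaks than the butyryl libraries and came from mice of uncertain diet, and these differences cannot be told apart from the mark.

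**Figure D4:**
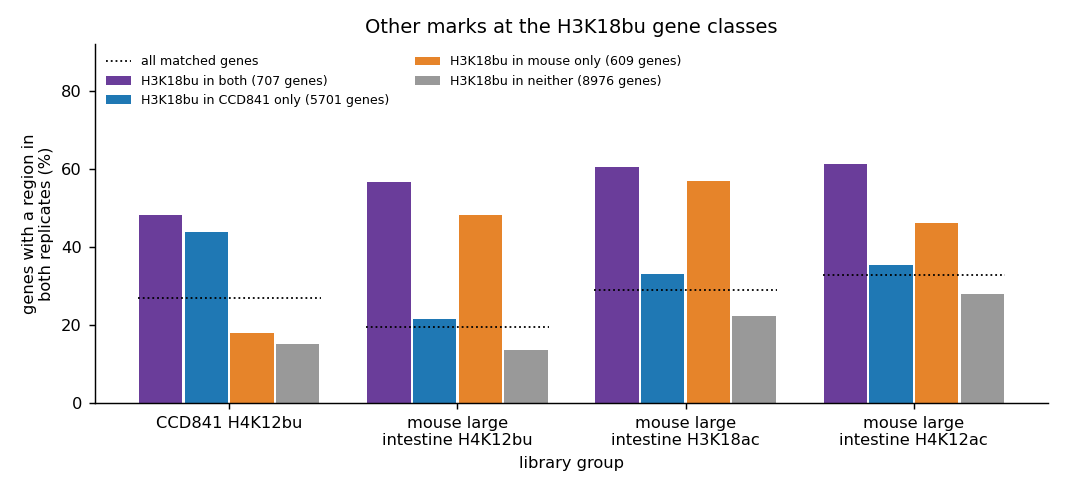
Share of genes with a region of another mark in both replicates (vertical, %) for the 4 H3K18bu classes in each library group (horizontal); dotted lines are all matched genes. The shared genes have the highest bar in all 4 groups, and the mouse-only genes fall below the dotted line for CCD841 H4K12bu, 18.1% against 27.0%. That line includes genes marked by H3K18bu in CCD841 cells, which the mouse-only class leaves out, and genes marked in neither species stand at 15.3%.

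Among lists of genes by function, mouse H3K18bu was found most often at genes of the colon epithelium, of butyrate use and of adherens junctions and desmosomes, and the fibroblast, smooth muscle, endothelial, neuronal and immune lists held no marked gene. Shares of all matched genes stand as the background of every count below: 40.1% in CCD841 cells and 8.23% in mouse, or 4.42% in both, 35.6% in CCD841 only and 3.81% in mouse only. Of 35 gene lists with 974 matched genes, colon epithelium had the highest mouse share, 8 of 23 genes (34.8% against 8.23% of all). It was followed by butyrate transport, sensing and oxidation with 8 of 26, adherens junctions and desmosomes with 6 of 20, KLF factors with 5 of 17 and the NF-kB pathway with 6 of 21. None of 22 fibroblast, 16 smooth muscle, 21 immune, 11 endothelial and 12 neuronal or glial genes was marked in mouse, and none of 33 genes of other organs, lists in which the background share gives about 1 to 3 genes each, so that a count of 0 in a single list is not read as a result. With a peak in either mouse replicate, 22 of 23 epithelial genes were listed, against 7 of 22 fibroblast, 2 of 16 smooth muscle and 9 of 21 immune genes and 45.8% of all, so that immune genes lay near the background. Each mouse replicate alone had a peak at 19 and 20 of the 23 epithelial genes, where 32.3% and 28.4% of all matched genes had one. High counts at epithelial and butyrate genes were not particular to H3K18bu. Mouse H3K18ac, found at 29.1% of all, was at 13 of the 23 epithelial and 13 of the 26 butyrate genes. It was at 5 of the 20 adherens junction and desmosome genes, 2 of the 22 fibroblast and 3 of the 16 smooth muscle genes.

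CCD841 cells were marked most often at other lists, and few of their epithelial marker genes were marked at the start. The YAP and TEAD pathway had the highest share, 15 of 21 genes (71.4% against 40.1% of all), followed by the unfolded protein response with 17 of 26, AP-1 and related factors with 10 of 16 and translation initiation factors with 22 of 37. The lowest were enteric neurons and glia with 1 of 12 and HOX genes with 5 of 39. Colon epithelium had 8 of 23 genes, but only VIL1 and CEACAM1 had the region at the start, 2 of 23 where 33.7% of all matched genes did. In mouse 6 of the 18 epithelial genes with a known strand were marked at the start, where 7.59% of all were. CCD841 cells also had regions at 10 of 22 fibroblast genes, at the start in 7, S100A4 and COL6A3 among them, at 9 of 21 immune and at 7 of 16 smooth muscle genes, all near the shares of all matched genes. Of the epithelial list, KRT8, ELF3, VIL1, GPA33, CEACAM1, EPCAM, AQP8 and HNF4A were marked in CCD841 cells, and 11 genes, CDH1 and KRT18 among them, were marked in neither species. EPCAM, an adhesion molecule of epithelia, had a fold of 3.99 and 5.38 in the CCD841 replicates, at the end of the gene away from the start. At the start, where 33.7% of all matched genes were marked, the 2 of 23 epithelial genes (8.70%) stood below the background and the 7 of 22 fibroblast genes (31.8%) near it. The marks at gene starts thus go against the epithelial label of CCD841, and its part in the comparison was not tested.

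**Figure D5:**
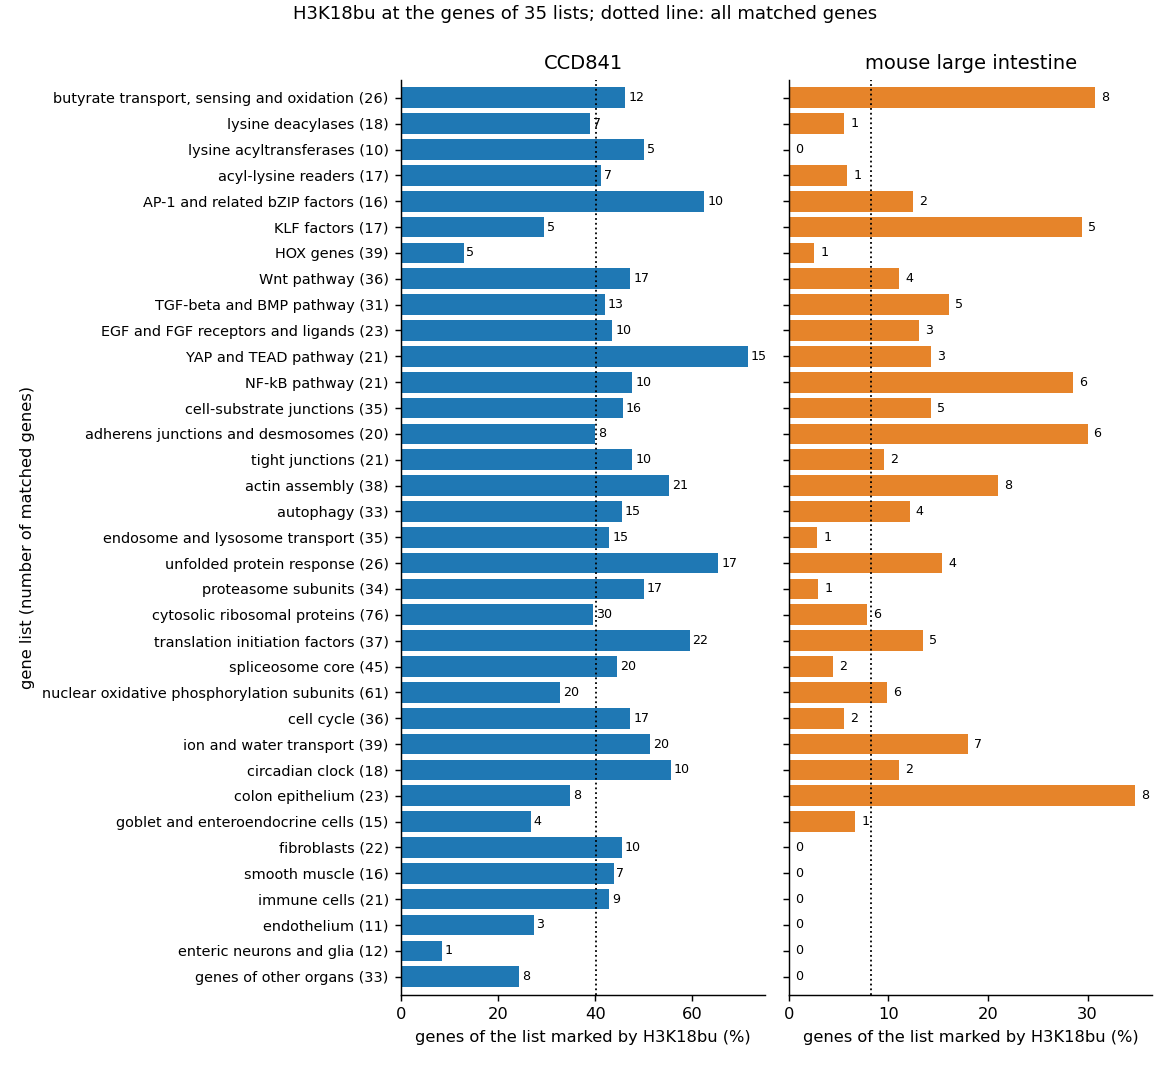
Share of each of 35 gene lists marked by H3K18bu (horizontal, %) in CCD841 cells on the left and mouse on the right, with the number of matched genes after each name, the number marked beside each bar and all matched genes as dotted lines. In mouse colon epithelium stands highest with 8 of 23 and the cell type lists at the bottom are at 0, whereas in CCD841 cells YAP and TEAD genes stand highest with 15 of 21.

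Within the epithelial list 4 genes were marked in both species. KRT8, a keratin of simple epithelia, had a fold of 5.19 and 5.50 in the CCD841 replicates and of 3.63 and 2.87 in mouse. GPA33, an antigen of intestinal epithelium, had 3.21 and 4.22 in CCD841 cells and 5.24 and 5.37 in mouse, and the mouse pileup of 5 in each replicate was among the highest of all genes. VIL1, which bundles the actin of microvilli, had 3.44 and 3.71 in CCD841 cells and 4.72 and 1.94 in mouse. It was the only 1 of the 4 marked at the start in both species, since KRT8, GPA33 and ELF3 had the CCD841 region at the other end of the gene. Marked in mouse only were the intestinal homeobox factors CDX1 and CDX2, KRT19 and the galectin LGALS4. CDX1 had a fold of 4.36 and 2.72 in the mouse replicates.

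Of the genes that handle butyrate, 12 of 26 were marked in CCD841 cells (46.2%, near the 40.1% of all) and 8 in mouse (30.8% against 8.23%). Among those shared were ETFDH, which passes electrons from fatty acid oxidation to ubiquinone, and CPT2, of the carnitine shuttle. ETFDH had a fold of 6.65 and 5.09 in CCD841 cells and of 2.91 and 2.87 in mouse. Mouse alone carried the mark at SLC16A1, a monocarboxylate transporter that imports butyrate, CPT1A, ACSS1 and both subunits of the electron transfer flavoprotein, ETFA and ETFB. CCD841 cells alone carried it at 9 genes, among them HADHA and HADH, enzymes of fatty acid oxidation, with 10.4 and 7.55 at HADHA. SLC5A8, a sodium-coupled importer of butyrate, and FFAR2, a receptor for short-chain fatty acids, were marked in neither. With a pileup of at least 2 asked in both replicates, mouse retained 2 of the 8 genes of this list, ETFDH and ETFB, beside 1.23% of all matched genes.

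Among junction genes, the adherens junction and desmosome list stood above the background in mouse, and the other junction lists lay nearer to it. Of 20 genes of adherens junctions and desmosomes, NECTIN2 and the plaque protein JUP were shared, and mouse alone was marked at PKP2, DSG2, DSP and DSC2, all parts of desmosomes. PKP2 had a fold of 2.91 in each mouse library. CCD841 cells alone were marked at 6 genes, among them PKP4, NECTIN1 and the catenin genes CTNNA1 and CTNNB1. The start of only 8 of these 20 genes could be placed in mouse. With a peak in either mouse replicate, 15 of the 20 were listed, against 45.8% of all. Tight junctions shared CLDN23 alone, and 10 of 21 genes were marked in CCD841 cells and 2 in mouse, shares near the 40.1% and 8.23% of all. Of 35 genes of cell-substrate junctions, 16 were marked in CCD841 cells, with CAV1, ITGAV and ITGA1 the strongest of those marked there alone, and 5 in mouse, with PEAK1 and FERMT1 in both. Actin assembly shared ACTR3, RHOA and WASL among 38 genes, of which 21 were marked in CCD841 cells and 8 in mouse.

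Among transcription factors, KLF6, KLF9 and KLF13 were shared, while KLF3 and KLF5 were marked in mouse only. KLF6 had a fold of 7.49 and 7.42 in CCD841 cells and of 1.94 and 1.97 in mouse. KLF13 had 4.66 and 5.45, and 2.83 and 2.72. Of the AP-1 family, which couples growth signals to transcription, FOSL2 and JUND were shared and 8 of 16 genes were marked in CCD841 cells only, beside 4.42% and 35.6% of all. JUN led these with 8.93 and 6.32. With a peak in either mouse replicate, 11 of the 16 genes of this family were listed, against 45.8% of all. NR1D2, a repressor of the circadian clock, was shared, and BHLHE40 was marked in mouse only.

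Several receptors of growth control carried the mark in both species, in lists of 21 to 36 genes with 2 or 3 shared genes each, where 4.42% of all were shared. EGFR, the receptor of epidermal growth factor, had a fold of 4.62 and 4.29 in CCD841 cells and of 2.91 and 3.83 in mouse, and its ligands AREG and EGF were shared as well. TGFBR2, a receptor of TGF-beta, had 6.50 and 7.45, and 1.86 and 1.89. SKI, a repressor of that pathway, and its mediator SMAD4 were also shared, and SMAD3 was marked in mouse only. In the Wnt pathway the receptors FZD5 and FZD8 and the R-spondin receptor LGR4 were shared, 14 of 36 genes were marked in CCD841 cells only, a share near the 35.6% of all, and WLS, the carrier that secretes Wnt proteins, in mouse only. RELA and RELB, subunits of NF-kB, and its inhibitor TNFAIP3 were shared. Of 21 YAP and TEAD genes, AMOTL2 and STK3 were shared and 13 were marked in CCD841 cells only, beside the same 35.6%, led by TEAD2 with 14.3 and 15.4.

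In the unfolded protein response, which senses misfolded protein in the endoplasmic reticulum, DNAJB9, DNAJC3, PDIA4 and EIF2AK3 were shared, 4 of 26 genes beside 4.42% of all. All 4 were marked at the start in both species. DNAJC3 had a fold of 12.1 and 12.9 in CCD841 cells and of 1.94 and 1.97 in mouse, and DNAJB9 had 11.2 and 8.49, and 2.87 in each mouse library. Among ion transport genes, the sodium pump subunit ATP1B1, the sodium channel subunit SCNN1A, the sulfate transporter SLC26A2 and the chloride transporter CLCN3 were shared. ATP1B1 had a fold of 3.79 and 4.30 in CCD841 cells and of 4.86 and 5.74 in mouse.

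Lists of general cell functions are given beside the shares of all matched genes, which were 40.1% in CCD841 cells and 8.23% in mouse. Of 36 cell cycle genes, 17 were marked in CCD841 cells, led by CDK2 and PCNA, 2 in mouse, CCNA2 and CDK6, and none in both. Of 34 proteasome subunits, 17 were marked in CCD841 cells and PSMD7 alone in both. Cytosolic ribosomal proteins were marked at 30 of 76 in CCD841 cells and 6 in mouse, with RPL18 and RPS15 in both. The spliceosome shared SF3B6 of 45 genes, translation initiation factors 4 of 37, autophagy TAX1BP1 and ATG10 of 33, endosome and lysosome transport STAM of 35, and nuclear subunits of oxidative phosphorylation SDHB, NDUFA6 and NDUFB7 of 61. No gene that writes, erases or reads acyl marks was shared, where 4.42% of all genes were, and these lists are too small to read a count of 0 against that share. Of 10 acyltransferases 5 were marked in CCD841 cells, EP300 among them, and none in mouse, of 18 deacylases 7 in CCD841 cells and HDAC2 in mouse, and of 17 readers 7 in CCD841 cells and BRD2 in mouse. These mouse counts turned on the rule of both replicates, and with a peak in either mouse replicate 12 of the 18 deacylases, 5 of the 10 acyltransferases and 6 of the 17 readers were listed (66.7%, 50.0% and 35.3% against 45.8% of all). Of 15 goblet and enteroendocrine genes, 4 were marked in CCD841 cells and ATOH1 in mouse.

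Of the genes marked in CCD841 cells only, 2971 (52.1%) had no peak of either mouse replicate at their ends and 47.9% had one. Of all matched genes, 45.8% had a mouse peak in either replicate, but the rule removes genes marked in both mouse replicates from the CCD841-only class. Among genes marked in neither species, which the rule limits in the same way, 36.6% had a mouse peak. Among the 10 strongest without a mouse peak were EEPD1, NUDT16, LEPR, GRIFIN, GABARAPL1, CAV1, PKNOX1, PDCD1LG2 and LRIF1. EEPD1, a nuclease of DNA repair, had a fold of 16.8 and 15.3 and pileups of 102 and 82 read ends. LEPR, the leptin receptor, had 11.5 and 13.4. CAV1, the main protein of caveolae, had 10.3 and 10.5, and GABARAPL1, which works in autophagosome assembly, had 12.6 and 12.4. PDCD1LG2, a ligand of the immune receptor PD-1, had 8.24 and 7.93. Ranking by the lower replicate requires high values in both CCD841 replicates, so their closeness at these genes is not read as reproducibility. All 9 but CAV1 also carried H4K12bu in CCD841 cells, beside 43.8% of the CCD841-only class and 27.0% of all. Of the mouse marks, PKNOX1 had H4K12bu and H3K18ac, and LRIF1 had H4K12ac. The start of EEPD1, overlapped by the peaks of both CCD841 replicates, is shown with the motif matches in capitals as before.
EEPD1 (human, hg38, chr7:36153004-36153303, + strand): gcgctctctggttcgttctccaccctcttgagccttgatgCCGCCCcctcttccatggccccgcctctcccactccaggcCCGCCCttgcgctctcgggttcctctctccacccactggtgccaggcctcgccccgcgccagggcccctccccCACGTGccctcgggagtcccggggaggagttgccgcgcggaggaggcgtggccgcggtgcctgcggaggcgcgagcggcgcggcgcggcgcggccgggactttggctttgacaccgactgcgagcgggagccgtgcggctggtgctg
It held 35 CG, 2 GC boxes and an E-box.

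Of the genes marked in mouse only, 291 (47.8%) had no CCD841 peak at their ends and 52.2% had one, against 66.5% of all matched genes with a CCD841 peak in either replicate. The rule itself removes genes marked in both CCD841 replicates from this class. Among genes marked in neither species, 43.6% had a CCD841 peak in either replicate. The 10 strongest without a CCD841 peak were MLPH, WLS, TRIM62, LY96, MAL2, TSPAN14, RASSF6, CDX2, ENPEP and IPMK. MLPH, melanophilin, which links vesicles to a myosin motor, had a fold of 5.59 and 4.66 and pileups of 5 and 4. MAL2, a protein of transport to the apical surface of epithelial cells, had 3.73 in each replicate. CDX2, which sets intestinal identity, had 2.91 and 3.68, and ENPEP, an aminopeptidase of the brush border, 2.91 and 3.78. LY96, the partner of the endotoxin receptor TLR4, had 4.42 and 3.73. At WLS and TRIM62 the region lay at the end of the gene away from the start. Mouse H3K18ac was found at 9 of the 10, all but MLPH, beside 56.8% of the mouse-only class and 29.1% of all, and mouse H4K12bu at 8, all but CDX2 and ENPEP, beside 48.1% and 19.7%. The starts of Mlph and Cdx2 are printed as the mouse counterparts, each overlapped by the peaks of both mouse replicates.
Mlph (mouse, GRCm38.p6, chr1:90914850-90915149, + strand): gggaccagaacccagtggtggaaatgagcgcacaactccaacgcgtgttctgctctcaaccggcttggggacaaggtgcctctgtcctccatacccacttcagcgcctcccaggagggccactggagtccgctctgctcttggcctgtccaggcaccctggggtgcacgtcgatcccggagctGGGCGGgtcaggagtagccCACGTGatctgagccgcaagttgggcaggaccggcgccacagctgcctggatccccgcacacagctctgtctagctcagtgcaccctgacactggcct
Cdx2 (mouse, GRCm38.p6, chr5:147307200-147307499, - strand): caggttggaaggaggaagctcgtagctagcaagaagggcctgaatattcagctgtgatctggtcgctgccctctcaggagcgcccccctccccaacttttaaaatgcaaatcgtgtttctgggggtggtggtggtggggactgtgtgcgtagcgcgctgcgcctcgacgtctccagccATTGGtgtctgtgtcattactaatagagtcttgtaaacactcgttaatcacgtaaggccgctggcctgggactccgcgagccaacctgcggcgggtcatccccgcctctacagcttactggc
They held 15 and 18 CG. Mlph held a GC box and an E-box, and Cdx2 held CCAAT.

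Mouse peaks with q below 0.05 in both replicates lay at 17 matched genes, 0.106% of all, and these were looked at after the values were seen. Shared among them were AOC1, ARHGAP17, ATP1B1, CAPN2, GPA33, IL7, MKKS and TADA1. The other 9, not marked in CCD841 cells, were CTSC, IHH, IL1RN, MLPH, SCARB2, SLX4IP, THUMPD3, TRIM62 and WLS, and 6 of these had a peak in 1 CCD841 replicate or in both without overlap. MKKS and SLX4IP rest on the same mouse peaks, at their adjoining starts, so that 1 mouse region is counted in both classes. IL7, a cytokine that gut epithelium makes for lymphocytes, had a fold of 6.65 and 3.77 in CCD841 cells and of 5.44 and 5.59 in mouse. AOC1, which breaks down histamine and diamines, had 7.23 and 3.63, and 3.78 and 4.66. The AOC1 region lay at the start in mouse but at the other end of the gene in CCD841 cells. IHH, the hedgehog signal of mature colonocytes, had 4.54 and 3.78 in mouse. Only GPA33, IL7 and ATP1B1 had a pileup of at least 5 in both mouse replicates, and all 3 were marked in CCD841 cells.

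The 7 genes taken from the study's text, some of which it names for H4K12bu, hold too few members to read against the 4.42% of all genes that were shared. FOSL1, an AP-1 subunit, had a fold of 5.29 and 4.49 in CCD841 cells, AKAP9, a scaffold for protein kinase A, 6.56 and 6.03, and FGFRL1, a receptor for fibroblast growth factors, 3.42 and 3.81, the last at the end of the gene away from the start. None of them was marked in both mouse replicates, and MYC, FGF14, CYRIA and CLDN3 were marked in neither species. With a peak in either mouse replicate, 5 of the 7 were listed, where 45.8% of all matched genes were. With a peak in either CCD841 replicate 5 of the 7 were listed too, MYC and CLDN3 among them, against 66.5% of all. The study named these genes for binding that differed between marks or between cell lines. That is another measure than a region of both replicates within 1 kb of a gene end. Of 595 matched genes on the human X chromosome, 21.2% were marked in CCD841 cells and 4.37% in mouse, against 40.1% and 8.23% of all matched genes.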

How the data were processed

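Peaks of CUT&Tag libraries, 2 per group, were compared. The submitters' processing notes name bcl2fastq 2.17.1, cutadapt 1.9.1, Bowtie2 2.3.1, MACS2 2.1.0 and the builds hg38 and mm10. The authors called peaks per library, without a control, at a p-value threshold of 0.01 and with at most 300000 peaks. The deposited fold ratio sets each summit against the background around it, as MACS2 wrote it, and the authors deposited −log10 p-values and −log10 q-values of the same test. The lists hold no counts, so no model of reads was fitted. Pileups were solved from the fold and the p-value, to within 0.01 of the −log10 p. Solver and overlap code were tested on simulated data.

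Peaks that overlapped by at least 1 bp were merged, and regions with a peak of both replicates were assigned to genes with pandas 2.3.3 and numpy 2.4.6 under Python 3.11.15, and intervals with scipy 1.17.1. Genes were those of GENCODE 44 and of RefSeq GRCm38.p6, matched by symbol in upper case. The mouse strand came from the RefSeq promoter table and was known for 12603 of the 15993 matched genes. Members and gene lists were chosen with earlier results of these data known. The text names the 10 genes of each class by rank, without peaks of the other species in the classes of 1 species, up to 4 members per list and class by the same ranks, and the genes the study names, except for items that are not reported here. List members named beyond 4, and genes with q below 0.05 in both mouse replicates, were chosen after their values were seen. Shares are set beside those of all matched genes, and no p was computed. Alternatives were thresholds on q and pileup, the definition of a shared region, the window, single replicates, equal numbers of regions, single-gene regions and autosomes.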

Additional observations from a re-analysis of the deposited data

How the results depend on the processing

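Over 14 alternatives the shared genes exceeded the product of the shares in 13, by 1.11 to 1.79 times, and fell below it, to 0.832, with q below 0.01 in every library. The marked shares limit how large this ratio can be, so its size is not compared between alternatives. The counts and shares themselves depended strongly on the choices, chiefly on the mouse side, and 69 of 126 values moved, counts by more than 1.5 times or shares beyond the 95% Wilson interval of counting error, which is the narrower measure. Values follow in the order of shared genes, genes in mouse only and genes in mouse, then the share of CCD841 genes marked in mouse, of mouse genes marked in CCD841, and of all matched genes marked in mouse. With q below 0.05 they were 8, 9 and 17 genes and 0.125%, 47.1% and 0.106%. With q below 0.01 they were 2, 4 and 6 genes and 0.0312%, 33.3% and 0.0375%. With peaks of a pileup of at least 2 they were 117, 76 and 193 genes and 1.83%, 60.6% and 1.21%. The 6408 genes of CCD841 passed all 3 thresholds. A peak in either replicate gave 5390, 1939 and 7329 genes and 50.7%, 73.5% and 45.8%, with 10640 genes (66.5%) in CCD841. Leaving out 1 replicate of each species gave 2975 to 3080, 1562 to 2078 and 4537 to 5158 genes and 32.3% to 37.0%, 59.7% to 65.6% and 28.4% to 32.3%, with 52.1% to 57.6% of all genes marked in CCD841. Windows of 3 kb gave 1242 shared genes and 14.1%, 66.0% and 11.8%, with 54.9% in CCD841. Whole gene bodies gave 2577 shared genes and 3032 in mouse, 23.6%, 85.0% and 19.0%, with 10930 genes (68.3%) in CCD841. The same 50645 strongest regions per library gave 297 shared genes, 2026 in CCD841 only and 2323 in CCD841 (14.5%), and 12.8%, 26.1% and 7.13%. Regions of 1 gene only gave 9.81%, 46.4% and 6.48%, with 30.7% in CCD841. Starts alone gave 50.2% of mouse genes marked in CCD841 and 7.59% of all marked in mouse, with 34.2% in CCD841. An overlap of replicates by 50% of the shorter region gave 9.12% of CCD841 genes and 6.62% of all marked in mouse, and the stretch covered by both replicates gave 39.1% of all marked in CCD841. Autosomes alone moved no value by that measure, with 698 shared genes.

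No paired analysis was possible because no result here comes from a test, and the replicate numbers of cells and mice do not pair them. Depth was not measured, since the lists hold no counts, and the low mouse pileups are 1 limit beside the definition of a shared region and the window. A mouse peak of 1 read end carries a counting error as large as its value, absence of a mouse peak was not detectable as absence of the mark, and the lists end at other thresholds in the 2 species. The causes of the shifts, other than the thresholds themselves, were not tested.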

Other observations

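Most regions lay away from gene ends. Of 108536 CCD841 regions found in both replicates, 7.09% lay within 1 kb of an end of a protein-coding gene, and 17.0% of the 8319 mouse regions did. The lists differ in length as well as in source, and within mouse the share was 34.0% for H4K12bu and 12.3% for H3K18ac. Genes marked in both were the longest class, with a median human length of 41.4 kb, followed by 37.1 kb for CCD841 only, 31.2 kb for mouse only and 27.3 kb for neither. A share of 6.79% of the shared genes carried none of the other marks in both replicates, against 26.6% of the genes marked in CCD841 only, 15.3% of those in mouse only and 38.6% of all matched genes.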
